A study of Mus musculus with 3 samples.

Results

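The genes described here are 7 effectors and regulators of chondrocyte hypertrophy (Col10a1, Mmp13, Panx3, Mef2c, Mef2a, Mef2d and Runx3), taken by name from the 32285 gene rows of single-cell RNA sequencing libraries of mouse fracture callus. They were followed cell by cell in cartilage cells. A cartilage cell is a barcode in which Col2a1 or Col10a1, the collagen genes of immature and of hypertrophic cartilage, reached 1% of the unique molecular identifiers (UMIs, counts of captured transcripts). Of 5463 barcodes that passed the quality filters, 2727 met this rule. The mice were C3H/HeJ females 9 weeks old, a strain that the submitters describe as slow to heal, and callus was taken 7 days after a femur had been pinned and broken at midshaft. The YKL group received YKL-05-099, an inhibitor of the salt-inducible kinases (SIKs), at 15 mg/kg. The PTH group received an N-terminal fragment of parathyroid hormone at 100 µg/kg, and the Control group received vehicle (PBS), each daily under the skin. There was 1 library per group, and the sources used here do not say how many mice a library holds. No test between groups was therefore possible, no difference below has a replicate check, and each 95% interval covers counting error only. UMIs in 1 library are not biological replicates.

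In endochondral fracture repair, cartilage forms first, its chondrocytes enlarge, and bone later replaces the matrix they leave. Enlarging (hypertrophic) chondrocytes make collagen X from Col10a1. The most mature of them add the collagenase MMP13, which cuts collagen II and opens the matrix to vessels and bone cells. Panx3 encodes a pannexin channel of prehypertrophic chondrocytes and osteoblasts. MEF2C is a transcription factor that drives hypertrophy and activates Col10a1, and MEF2A and MEF2D are its close relatives. RUNX3 acts beside RUNX2 in chondrocyte maturation. Class IIa histone deacetylases such as HDAC4 repress MEF2C and RUNX2. SIKs phosphorylate these deacetylases and keep them out of the nucleus, and signalling from the PTH receptor inhibits SIKs.

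Col10a1 and Mmp13 mark the start and the end of this programme, and the DNA just upstream of both genes is shown because RUNX and AP-1 factors are known regulators of Mmp13. On the mouse assembly GRCm38 (mm10), Col10a1 (ENSMUSG00000039462) lies at chr10:34389981-34397085 on the plus strand and Mmp13 (ENSMUSG00000050578) at chr9:7272514-7283331 on the plus strand. The windows run over the 250 bases before the annotated start, from RefSeq on GRCm38.p6, at chr10:34389731-34389980 for Col10a1 and chr9:7272264-7272513 for Mmp13. Capitals mark the RUNX core ACCACA and the AP-1 motif TGANTCA.
Col10a1: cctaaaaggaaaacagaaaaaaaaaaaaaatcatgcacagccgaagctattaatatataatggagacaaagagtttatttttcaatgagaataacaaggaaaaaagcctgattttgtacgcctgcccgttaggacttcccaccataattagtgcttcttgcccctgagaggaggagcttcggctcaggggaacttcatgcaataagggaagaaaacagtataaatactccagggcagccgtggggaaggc
Mmp13: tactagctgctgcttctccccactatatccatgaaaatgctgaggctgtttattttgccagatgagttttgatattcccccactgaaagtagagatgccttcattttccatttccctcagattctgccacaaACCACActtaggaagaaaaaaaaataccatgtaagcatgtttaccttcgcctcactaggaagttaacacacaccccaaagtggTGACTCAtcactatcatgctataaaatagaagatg
The Mmp13 window held 1 RUNX core, beginning 118 bases before the start, and 1 AP-1 match, TGACTCA, beginning 35 bases before it. The Col10a1 window held neither. Both strands were searched, along with the MEF2 consensus, which neither window held. Among 32851 windows of the same length, 14.0% held the RUNX core, 6.75% the AP-1 motif and 2.92% the MEF2 consensus. Of the other genes, Runx3 had 2 RUNX cores in 1 of its 2 windows and Mef2c had an AP-1 match in 1 of its 3. The tables gave windows for 6 of the 7 genes, with no entry for Panx3. The other genes lie at chr9:37659902-37669235 (Panx3, minus strand), chr13:83504034-83667080 (Mef2c, plus), chr7:67231163-67372858 (Mef2a, minus), chr3:88142372-88172086 (Mef2d, plus) and chr4:135120652-135177990 (Runx3, plus). Genes on the opposite strand overlap Col10a1 (Nt5dc1), Mef2a (Lysmd4), Mef2d (1700113A16Rik) and Runx3 (Gm16224). The sources used here do not say whether counting kept the strands apart, so reads of such partners may be mixed. Nt5dc1 had 190, 245 and 291 UMIs over all barcodes of the YKL, PTH and Control libraries. Col10a1 had 122207, 40749 and 83594 in their cartilage cells alone.

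The YKL library gave 414 cartilage cells, 68.3% (64.4 to 72.0) of its kept cells. The PTH library gave 705, or 36.9% (34.7 to 39.1), and the Control library 1608, or 54.6% (52.8 to 56.4). YKL cells were deeper, with a median of 30567.5 UMIs against 18192 in PTH and 17060 in Control cells, so shares of cells with a UMI are given after each cell was thinned to 5000 UMIs. That left 390 YKL, 670 PTH and 1524 Control cells. Levels are CPM (counts scaled to a common library total), the UMIs of a gene over all cartilage cells of a library scaled to their total count. All 11 chondrocyte markers were detected in each library, at a summed 36804, 35962 and 38055 CPM in YKL, PTH and Control cells. Markers of other cells moved with the libraries. The 4 haemoglobin genes summed to 1862, 3441 and 15498 CPM and 7 neutrophil markers to 3.81, 17.7 and 664 CPM in YKL, PTH and Control cells, and 8 osteoblast markers to 4517, 4808 and 2993 CPM, with Mepe at 0 in YKL and Control cells and Ltf, a neutrophil marker, at 0 in YKL. Macrophage markers, 8 genes, summed to 5.88, 14.8 and 106 CPM, with Adgre1 at 0 in YKL, and 5 tendon markers to 15.3, 168 and 78.0 CPM, with Kera at 0 in YKL. The part of these differences in the results was not tested. Cells with Ptprc, Pecam1 or Cdh5 UMIs or over 10% haemoglobin were left out in an alternative. The calls between libraries given below for the 7 genes then stayed as they were, except that Runx3 passed 1.5-fold for YKL against PTH. The genes of the other lists were not checked singly. No barcode sequence was shared between the cartilage cells of any pair of libraries.

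Col10a1 was carried by more cells, and at higher levels, in the YKL library than in the others. Its summed level was 9324 CPM (9272 to 9377) in YKL, 3087 CPM (3057 to 3117) in PTH and 3016 CPM (2996 to 3037) in Control cartilage cells. The PTH and Control libraries lay close together and YKL stood apart. At 5000 UMIs, 317 of 390 YKL cells (81.3%, 77.05 to 85.03), 299 of 670 PTH cells (44.6%, 40.8 to 48.5) and 664 of 1524 Control cells (43.6%, 41.1 to 46.1) held a Col10a1 UMI. Cells with a UMI held a mean of 64.2 ± 114 (SD) in YKL, 34.5 ± 64.0 in PTH and 39.3 ± 83.1 in Control. Their medians were far lower, at 20, 5 and 3 UMIs, so the level was spread over a long tail of cells. Free RNA in the droplets matters for this gene. Endothelial-like cells, which line vessels and should lack collagen X, held a Col10a1 UMI in 20 of 38 YKL cells (52.6%, 35.8 to 69.0), 15 of 183 PTH cells (8.20%, 4.66 to 13.2) and 24 of 92 Control cells (26.1%, 17.5 to 36.3) at the same thinned depth. Those were the cells deep enough to be thinned. Over all 67 YKL, 337 PTH and 199 Control endothelial-like cells outside the collagen rule, the median depth was 6197, 5782 and 4518 UMIs. The YKL share of 81.3% lay above this background, and the part of free RNA in the difference between libraries was not tested. Cells in which Col10a1 reached 0.1% of UMIs were above the summed background, which was 194, 22.7 and 67.2 CPM in YKL, PTH and Control endothelial-like cells outside the collagen rule. With the 3 YKL, 4 PTH and 6 Control endothelial-like cells that met the rule, it was 633, 28.8 and 68.1 CPM. Cells at 0.1% or more made up 57.2% (52.3 to 62.1) of YKL, 24.3% (21.1 to 27.6) of PTH and 18.1% (16.2 to 20.1) of Control cartilage cells and held 98.9%, 96.98% and 96.995% of the Col10a1 UMIs.

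The cartilage cells also differed in which collagen dominated. Both Col2a1 and Col10a1 passed 1% of UMIs in 86 YKL cells (20.8%, 16.97 to 25.004), 61 PTH cells (8.65%, 6.68 to 11.0) and 134 Control cells (8.33%, 7.03 to 9.79). Col10a1 alone passed it in 26 YKL cells (6.28%, 4.14 to 9.07), 7 PTH cells (0.993%, 0.400 to 2.04) and 15 Control cells (0.933%, 0.523 to 1.53). Cells of these kinds were thus a larger share of the YKL library, while 72.9% of YKL, 90.4% of PTH and 90.7% of Control cells passed it with Col2a1 alone. Col10a1 helped to choose these cells, so its own levels are given as a description.

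Mmp13 was rare, and a few cells held most of it. Its summed level was 239 CPM (231 to 248) in YKL, 76.6 CPM (71.9 to 81.5) in PTH and 57.7 CPM (54.9 to 60.6) in Control cells. At 5000 UMIs it was found in 57 YKL cells (14.6%, 11.3 to 18.5), 52 PTH cells (7.76%, 5.85 to 10.1) and 69 Control cells (4.53%, 3.54 to 5.70), against 1 of 38 (2.63%, 0.0666 to 13.8), 4 of 183 (2.19%, 0.599 to 5.502) and 0 of 92 endothelial-like cells in YKL, PTH and Control. The 0 of 92 allows a share of up to 3.93% by the exact interval. The intervals of cartilage and endothelial-like cells met in YKL and Control and did not meet in PTH. Positive cells held a mean of 8.47 ± 11.9 (SD) UMIs in YKL, 5.65 ± 7.07 in PTH and 8.41 ± 15.6 in Control. Their medians were 3, 3 and 2 UMIs in the same order. The share of positive cells thus differed between YKL and Control while the mean per positive cell was almost the same. If the same UMIs were dealt out evenly, 71.0% of YKL, 35.5% of PTH and 31.7% of Control cells would have held at least 1. Instead, 50% of all Mmp13 UMIs lay in 8 of 414 YKL, 6 of 705 PTH and 7 of 1608 Control cells. When the 5 cells richest in Mmp13 were left out of each library, an alternative chosen after seeing the data, the log2 ratio of Mmp13 for YKL against Control was 2.11, against 2.05 with them, and for PTH against Control 0.31, against 0.41.

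Cells in which Col10a1 but not Col2a1 passed 1% of UMIs had the highest Mmp13. In these cells Mmp13 reached 2202 CPM (2097 to 2311) in YKL, 1119 CPM (935 to 1328) in PTH and 1104 CPM (968 to 1253) in Control, with a UMI in 23 of 26, 6 of 7 and 11 of 15 cells. In cells with both collagens it was 383 CPM in YKL, 269 in PTH and 282 in Control, and with Col2a1 alone 47.8, 47.7 and 30.7 CPM. This order, Col10a1 alone above both and both above Col2a1 alone, was the same in the 3 libraries. Much of the Mmp13 lay in cells that did not meet the collagen rule, some of them close to it. The rule kept 56.6% of its UMIs in YKL, 34.0% in PTH and 48.1% in Control kept cells, against 98.7%, 98.1% and 97.9% of those of Col10a1. The YKL cell with the most Mmp13, 1231 of its 67385 UMIs, had 662 of Col10a1 and fell just short of the 1% rule. It also held 4013 UMIs of Spp1, which encodes the mineral-binding protein osteopontin, and 169 of the osteoblast gene Bglap. At the next richest YKL cell outside the rule, 296 Mmp13 UMIs stood beside 3 of Col10a1, 819 of Col1a1 and 49 of the osteoclast gene Acp5. Over all kept cells outside the rule, Mmp13 stood at 920 CPM (883 to 957) in YKL, 144 CPM (138 to 151) in PTH and 194 CPM (185 to 203) in Control, and 50% of these UMIs lay in 1 YKL, 7 PTH and 4 Control cells.

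**Figure D1:**
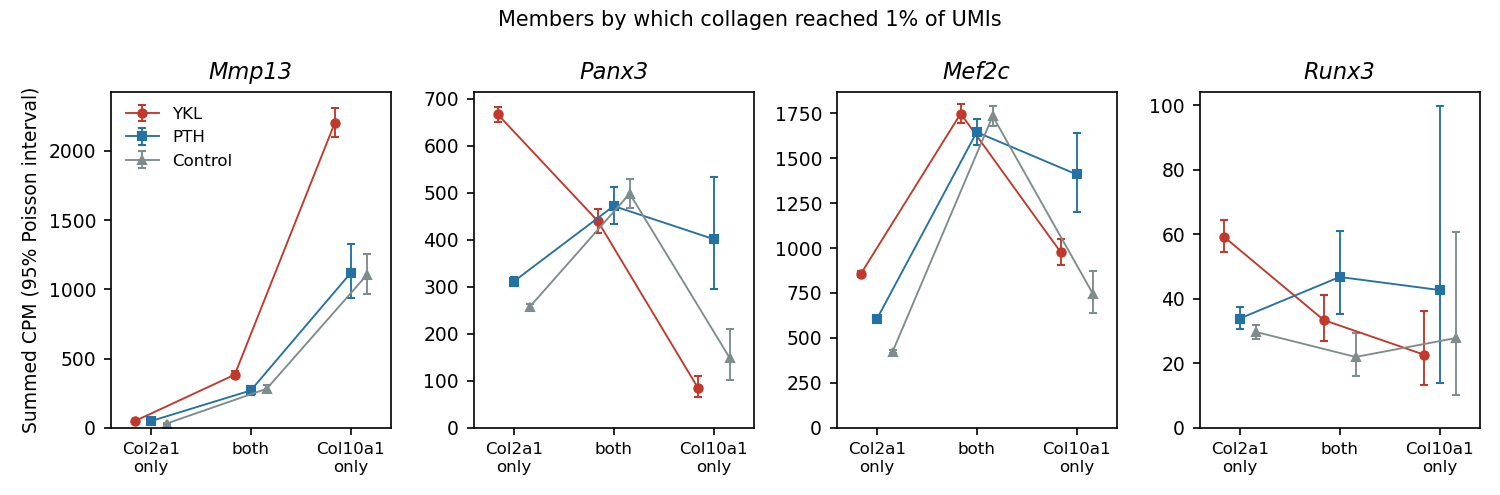
Summed CPM (y axes, linear, each from 0) of Mmp13, Panx3, Mef2c and Runx3 in cartilage cells grouped by which collagen passed 1% of UMIs (x axes), in YKL (circles), PTH (squares) and Control (triangles), with 95% Poisson intervals. Mmp13 is highest where Col10a1 alone passed, at 2202, 1119 and 1104 CPM, and Mef2c where both did, at 1748, 1644 and 1734 CPM.

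Panx3, the pannexin channel, followed another order. Its summed level was 588 CPM (575 to 601) in YKL, 326 CPM (316 to 336) in PTH and 274 CPM (268 to 280) in Control cells. At 5000 UMIs, 265 YKL cells (67.9%, 63.1 to 72.6), 335 PTH cells (50%, 46.1 to 53.9) and 682 Control cells (44.8%, 42.2 to 47.3) held a UMI, at a mean of 3.69 ± 2.88 (SD), 2.91 ± 2.09 and 2.78 ± 2.21 UMIs. Both the share and the level were highest in YKL. In endothelial-like cells it was found in 1 of 38, 1 of 183 and 1 of 92 cells of the YKL, PTH and Control libraries. In YKL, Panx3 was highest in cells with Col2a1 alone, at 667 CPM (651 to 684), lower with both collagens at 440 CPM (415 to 466), and lowest with Col10a1 alone at 85.5 CPM (65.8 to 109). In PTH these levels were 311, 472 and 401 CPM, and in Control 257, 498 and 148 CPM. The peak of Panx3 therefore stood among Col2a1 cells in YKL and among cells with both collagens in PTH and Control, where its counting intervals did not meet those of Col2a1 cells. In PTH the interval of the 7 cells with Col10a1 alone (295 to 534) met both.

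Mef2c was found in most cartilage cells. Its summed level was 1043 CPM (1026 to 1061) in YKL, 701 CPM (687 to 715) in PTH and 523 CPM (515 to 532) in Control cells. At 5000 UMIs, 358 YKL cells (91.8%, 88.6 to 94.3), 541 PTH cells (80.7%, 77.6 to 83.7) and 1155 Control cells (75.8%, 73.6 to 77.9) held a UMI. Positive cells held 5.56 ± 4.20 (SD) UMIs in YKL, 4.22 ± 3.81 in PTH and 3.44 ± 3.37 in Control. The libraries stood in the order YKL, PTH, Control by all 3 measures. Its spread over cells was broad, since 50% of its UMIs took 88 YKL, 109 PTH and 237 Control cells, against 8, 6 and 7 for Mmp13. Mef2c was highest where both collagens passed 1%, at 1748 CPM (1698 to 1799) in YKL, 1644 CPM (1571 to 1720) in PTH and 1734 CPM (1677 to 1792) in Control. It was lower with Col10a1 alone, at 976, 1409 and 747 CPM, and lower with Col2a1 alone, at 854, 603 and 424 CPM. In the cells with both collagens the intervals of the 3 libraries overlapped, while in cells with Col2a1 alone they lay apart. Endothelial cells themselves express Mef2c, so they give no background for it.

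Mef2a, Mef2d and Runx3 were low, at about 1 UMI per positive cell. Mef2a, a relative of MEF2C found in many tissues, had 97.1 CPM (91.8 to 103) in YKL, 86.7 CPM (81.7 to 91.8) in PTH and 53.1 CPM (50.4 to 55.9) in Control cells, so both treated libraries stood above Control. Mef2d had 53.5 CPM (49.6 to 57.6) in YKL, 46.5 CPM (42.9 to 50.3) in PTH and 41.9 CPM (39.6 to 44.4) in Control, a smaller spread in which neighbouring intervals met. Runx3 had 52.0 CPM (48.1 to 56.0) in YKL, 35.1 CPM (32.0 to 38.4) in PTH and 29.2 CPM (27.2 to 31.2) in Control, with YKL apart. At 5000 UMIs a Mef2a UMI was in 35.6%, 30.7% and 21.9% of YKL, PTH and Control cells, a Mef2d UMI in 23.3%, 19.4% and 16.8%, and a Runx3 UMI in 19.5%, 13.6% and 12.3%. The highest mean per positive cell among the 3 was 1.37 UMIs, for Mef2a in PTH. Runx3 was at 0 in the thinned endothelial-like cells of all 3 libraries, which allows up to 9.25%, 1.996% and 3.93% of the YKL, PTH and Control cells by the exact intervals.

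In YKL against Control cartilage cells, 6 of the 7 genes passed 1.5-fold upward and 0 passed it downward. Across the 11663 genes with 50 or more UMIs over both libraries, 9.53% passed 1.5-fold upward and 9.57% downward. No support is drawn from this, since Col10a1 helped to choose the cells and the genes were chosen with earlier results known. The ratio was 4.15 (3.902 to 4.406) for Mmp13, 3.09 (3.06 to 3.12) for Col10a1, 2.14 (2.08 to 2.21) for Panx3 and 1.99 (1.95 to 2.04) for Mef2c. Mef2a followed at 1.83 (1.70 to 1.97) and Runx3 at 1.78 (1.61 to 1.98). Mef2d, at 1.28 (1.16 to 1.40), did not reach 1.5-fold. Because Col10a1 helped to choose the cells, the comparison was repeated with cells chosen by Col2a1 alone, which left 388 YKL, 698 PTH and 1593 Control cells. Mmp13 then stood at 2.43 and the count was again 6. With the 5 classes of Col10a1 level described further on weighted equally, and Col10a1 left out, the count was 1. Mmp13 then stood at 1.49, Panx3 at 1.30, Mef2a at 1.23 and Mef2c at 1.09, and Runx3 was the gene still past 1.5-fold.

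Between PTH and Control, 1 of the 7 genes reached 1.5-fold. This was Mef2a, at 1.63 (1.51 to 1.77), against a background of 6.96% of 11682 genes upward and 3.29% downward. Its ratio was 1.37 with the Col10a1 classes weighted equally, which left a count of 0. Mef2c was at 1.34 (1.30 to 1.37), Mmp13 at 1.33 (1.23 to 1.44), Runx3 at 1.20 (1.07 to 1.35), Panx3 at 1.19 (1.15 to 1.24), Mef2d at 1.11 (1.00 to 1.22) and Col10a1 at 1.02 (1.01 to 1.04). For Mmp13 the direction was not stable, since cells with Col2a1 or Col10a1 at 2% of UMIs gave a ratio of 0.784. Nor was it for Col10a1, which stood at 0.845 when every cell was weighted equally. Between YKL and PTH, 3 of the 7 were at least 1.5-fold higher in YKL, and 0 lower, against 5.85% of 11012 genes upward and 8.94% downward. These were Mmp13 at 3.12 (2.91 to 3.35), Col10a1 at 3.02 (2.99 to 3.05) and Panx3 at 1.80 (1.74 to 1.87). With cells chosen by Col2a1 alone Mmp13 stood at 1.79 and the count was 5, and with the Col10a1 classes weighted equally Panx3 stood at 1.22 and the count was 1. Mef2c at 1.49 (1.45 to 1.53) and Runx3 at 1.48 (1.31 to 1.67) lay at the 1.5-fold line. The comparisons share libraries and are not independent of each other.

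**Figure D2:**
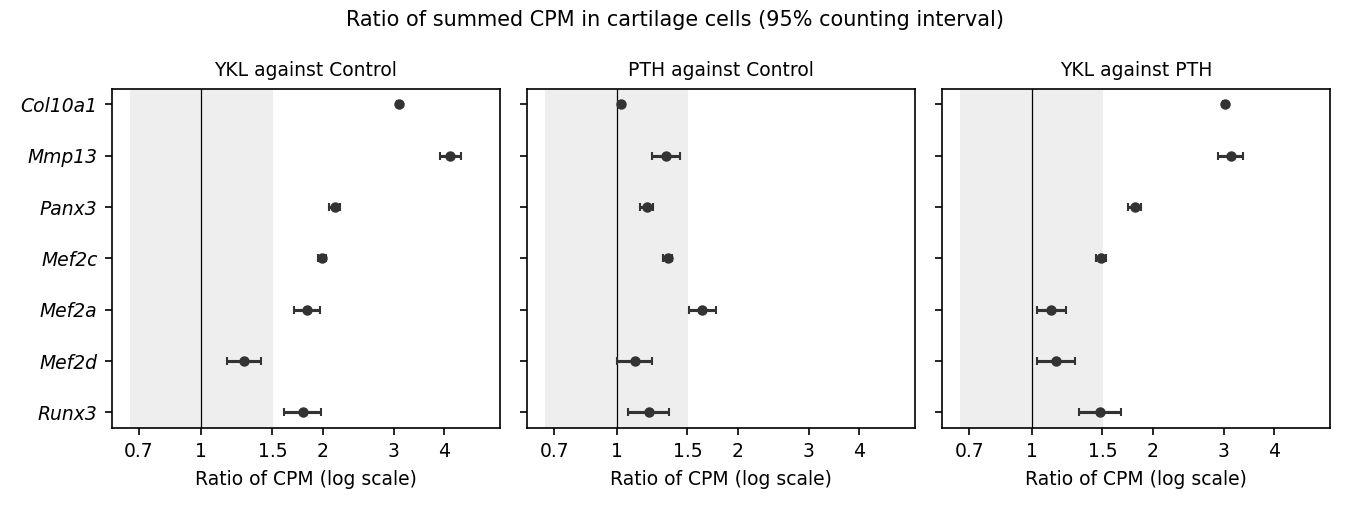
Ratios of summed CPM in cartilage cells (x axes, log scale) for the 7 genes in the 3 comparisons, with 95% counting intervals that do not include variation between mice. The grey band spans ratios under 1.5-fold. Mmp13 stands farthest to the right for YKL against Control, at 4.15, while all but Mef2a lie in the band for PTH against Control.

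The ratio of a gene between libraries can be split into the ratio of the shares of positive cells and the ratio of the levels per positive cell, whose log2 values add up. For YKL against Control at 5000 UMIs, the share of positive cells made up 99.3% of the log2 change of Mmp13, with a share ratio of 3.23 and a level ratio of 1.01. For Mef2c it made up 28.5%, with a share ratio of 1.21 and a level ratio of 1.62. Col10a1 and Panx3 lay between, at 56.0% and 59.5%. By these means Mmp13 differed mostly by how many cells held it, and Mef2c mostly by how much a cell held. The thinned ratio of Mmp13 was 3.25, below the 4.15 from all UMIs. Its mean level rests on 57 YKL and 69 Control positive cells with a long tail, and other measures lay further apart. The median was 3 UMIs in YKL and 2 in Control, and the 90th percentile 30.2 and 18. The shares of Mef2c were near their ceiling, which limits what its share ratio can show. For Col10a1, free RNA can make a cell positive, and it was unequal between libraries. A Col10a1 UMI was in 52.6% of YKL, 8.20% of PTH and 26.1% of Control endothelial-like cells, and the part of this in the split was not tested. For Mef2a, Mef2d and Runx3 the share made up 91.7%, 83.0% and 86.8%, but their positive cells held about 1 UMI, the least that a positive cell can hold, so this split says little about them. For PTH against Control, Mmp13 had a share ratio of 1.71 and a level ratio of 0.673, in opposite directions, and Col10a1 had 1.02 and 0.878.

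**Figure D3:**
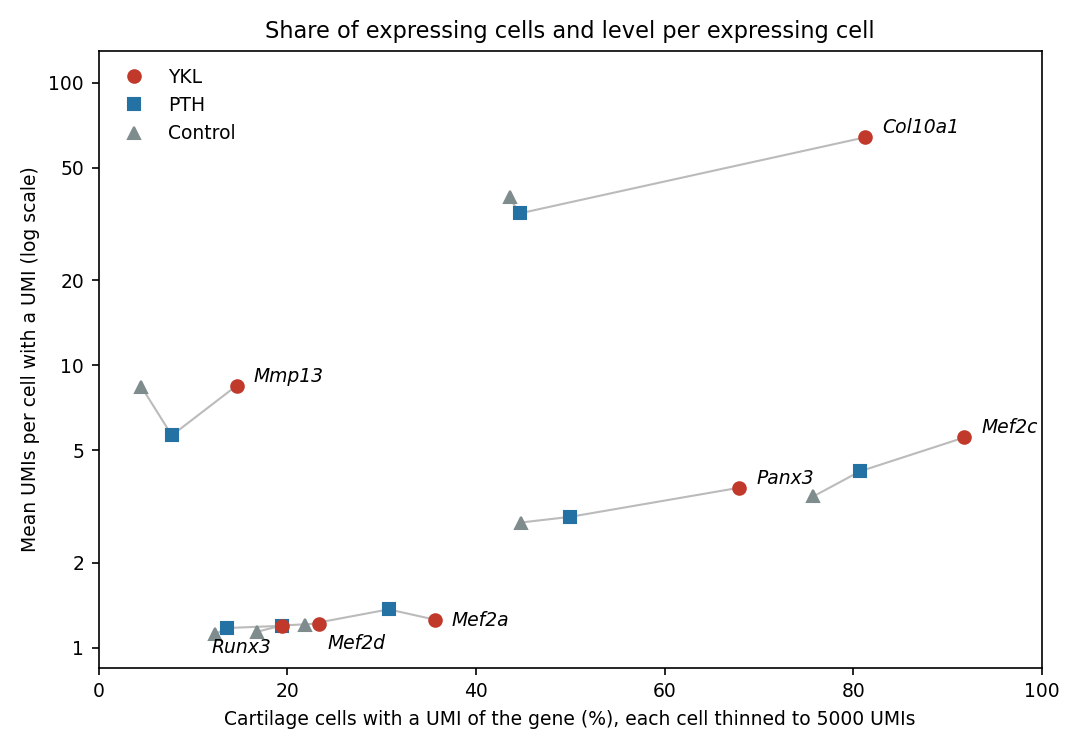
Share of cartilage cells with a UMI of a gene (x axis, percent, at 5000 UMIs per cell) against the mean UMIs per positive cell (y axis, log scale), for the 7 genes in YKL (circles), PTH (squares) and Control (triangles), with a grey line joining the points of 1 gene. Mmp13 lies at a like height in YKL and Control, at 8.47 and 8.41 UMIs per positive cell, whereas Col10a1 and Mef2c lie both farther right and higher in YKL.

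Among cartilage cells, most Mmp13-positive cells also held Col10a1. The rule itself chose cells by Col2a1 or Col10a1 and left out much of the Mmp13, some of it in cells with little or no Col10a1, such as a PTH cell with 236 Mmp13 and 0 Col10a1 UMIs. Of the Mmp13-positive cells, 55 of 57 in YKL (96.5%, 87.9 to 99.6), 48 of 52 in PTH (92.3%, 81.5 to 97.9) and 63 of 69 in Control (91.3%, 82.0 to 96.7) also held Col10a1. Mmp13-negative cells held it in 78.7%, 40.6% and 41.3% of cases in YKL, PTH and Control. The reverse did not hold. Among Col10a1-positive cells, Mmp13 was found in 17.4% (13.3 to 22.0) in YKL, 16.1% (12.1 to 20.7) in PTH and 9.49% (7.37 to 11.98) in Control, and in Col10a1-negative cells in 2 of 73, 4 of 371 and 6 of 860. With Col10a1 at 0.1% of UMIs in place of 1 UMI, an alternative chosen after seeing the data, Mmp13 was found in 54 of 219 YKL cells (24.7%, 19.1 to 30.9), 41 of 157 PTH cells (26.1%, 19.4 to 33.7) and 50 of 268 Control cells (18.7%, 14.2 to 23.8). At that level the intervals of the 3 libraries overlapped.

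Mef2c accompanied Col10a1 in most cells. It was found in 94.3% (91.2 to 96.6) of Col10a1-positive YKL cells, 92.3% (88.7 to 95.1) of PTH cells and 84.9% (82.0 to 87.6) of Control cells, against 80.8% (69.9 to 89.1), 71.4% (66.5 to 76.0) and 68.7% (65.5 to 71.8) of the Col10a1-negative ones. Mean Mef2c was 5.69 against 2.56 UMIs in YKL, 5.34 against 1.85 in PTH and 4.02 against 1.52 in Control, Col10a1-positive cells first. Panx3 had a different place. It was found in 25 of 57 Mmp13-positive YKL cells (43.9%, 30.7 to 57.6), against 72.1% (66.9 to 76.8) of Mmp13-negative ones. In PTH these shares were 51.9% and 49.8%, and in Control 44.9% and 44.7%, so the shares lay apart in YKL and close together in the others, and this difference between libraries was not tested. All 4 of Col10a1, Mmp13, Panx3 and Mef2c were found together in 24 YKL cells (6.15%, 3.98 to 9.02), 25 PTH cells (3.73%, 2.43 to 5.46) and 25 Control cells (1.64%, 1.06 to 2.41). The most frequent combination in YKL was Col10a1, Panx3 and Mef2c without Mmp13, in 189 cells (48.5%, 43.4 to 53.5), against 151 PTH cells (22.5%, 19.4 to 25.9) and 317 Control cells (20.8%, 18.8 to 22.9). The shares of Col10a1-positive cells in these combinations include the unequal free RNA background given above (52.6%, 8.20% and 26.1% of YKL, PTH and Control endothelial-like cells), so no difference between libraries is drawn from them. None of the 4 was found in 8 YKL, 79 PTH and 208 Control cells.

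Correlations over the thinned cells, computed within a library on log2(UMIs + 1), are given as descriptions, since the cells of a library share their depth and free RNA. Of the 21 pairs, Col10a1 with Mef2c was the strongest in each library, at r = 0.43 over 390 YKL cells, 0.54 over 670 PTH cells and 0.56 over 1524 Control cells. Col10a1 with Mmp13 stood at 0.37, 0.41 and 0.34 in the same order. Mef2c with Mmp13 was weak, at 0.04, 0.14 and 0.11, although both went with Col10a1. Panx3 with Mef2c was at 0.14 in YKL, 0.34 in PTH and 0.41 in Control. Panx3 with Col10a1 was at -0.15 in YKL, 0.22 in PTH and 0.26 in Control, so its sign in YKL was opposite to that in the other libraries. Mef2a, Mef2d and Runx3 had no pair above 0.20 after rounding in any library, and at about 1 UMI per positive cell no finding rests on them.

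**Figure D4:**
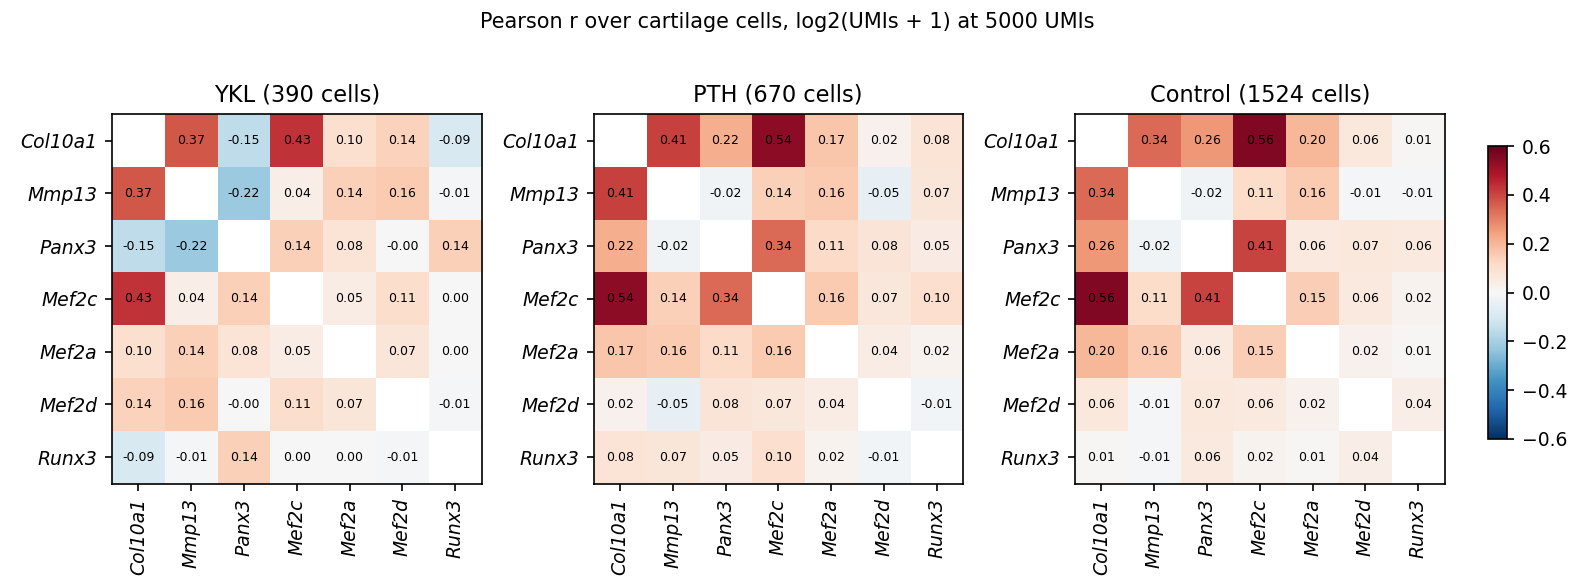
Pearson r of log2(UMIs + 1) for the pairs of the 7 genes over cartilage cells thinned to 5000 UMIs, in YKL (390 cells), PTH (670 cells) and Control (1524 cells), with red above 0 and blue below 0. Col10a1 with Mef2c is the darkest pair in each panel, and Panx3 with Col10a1 is blue (-0.15) in YKL and red in PTH (0.22) and Control (0.26).

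Cells were sorted into 5 classes by their own Col10a1 share of UMIs, taken before thinning. A cell's place at 0 or under 0.1% depends on its depth and on free RNA, both unequal between libraries. Median depth under 0.1% was 31644 UMIs in YKL, 19858 in PTH and 17802 in Control. Col10a1 there was 247, 235 and 178 CPM, against 194, 22.7 and 67.2 CPM in endothelial-like cells outside the rule. Whether these low classes hold like cells in the 3 libraries was not tested. The class at 0 held 12 YKL, 286 PTH and 540 Control cells, and the class at 3% or more 43, 16 and 68 cells, so the first YKL class and the last PTH class rest on under 20 cells. Mef2c was higher in each higher class in all 3 libraries. From the class at 0 upward it stood at 439, 688, 1123, 1454 and 1819 CPM in YKL, at 346, 637, 1233, 1555 and 1838 CPM in PTH, and at 275, 400, 1084, 1580 and 1717 CPM in Control. In the 3 classes from 0.1% upward, the ratio of YKL against Control was 1.04 (0.987 to 1.09), 0.920 (0.870 to 0.973) and 1.06 (0.993 to 1.13). Below 0.1% it was 1.72 (1.65 to 1.79). Cells of these 3 classes thus held close to the same Mef2c in YKL and Control, and the libraries differed in cells with little Col10a1 and in how many cells each class held. Weighting the 5 classes equally brought the YKL against Control ratio of Mef2c to 1.09 and that of Panx3 to 1.30. This gives the 12 YKL cells at 0 the weight of a whole class.

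Panx3 followed Col10a1 differently in the 3 libraries. In YKL it was highest in cells with Col10a1 under 0.1%, at 722 CPM (700 to 744), and stood at 347 CPM (323 to 373) in the class from 1% to 3%. In Control it was highest from 0.1% to 1%, at 553 CPM (524 to 583), and from 1% to 3%, at 534 CPM (495 to 576), whose intervals met. At 3% or more it was 375 CPM (338 to 415) in Control. In PTH it stood at 205, 378, 415, 419 and 610 CPM from the class at 0 upward, the last over 16 cells. The intervals of the PTH classes at 378, 415 and 419 CPM met. In cells under 0.1% the YKL against Control ratio of Panx3 was 2.85 (2.72 to 2.98). Runx3 in YKL was also higher in cells with little Col10a1, at 68.9 CPM (62.2 to 76.1) under 0.1% and 32.1 CPM (25.1 to 40.4) from 1% to 3%. In these classes Runx3 stood at 38.9 and 47.6 CPM in PTH and at 30.6 and 23.5 CPM in Control. Those intervals met within each library. Mef2a in Control was 43.3 CPM (39.1 to 47.9) at 0 and 136 CPM (114 to 161) at 3% or more, and in YKL it was 94.0 and 105 CPM in the same classes.

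For Mmp13, these classes lack the cells low in both collagens, such as a YKL cell with 296 Mmp13 and 3 Col10a1 UMIs. The collagen rule kept 56.6% of the YKL Mmp13 UMIs. Among the YKL cells it kept, Mmp13 was nearly confined to those with Col10a1 from 0.1% of UMIs upward. A UMI was found in 0 of 8, 3 of 163, 10 of 113, 29 of 66 and 15 of 40 thinned YKL cells from the lowest class to the highest. In PTH these counts were 2 of 268, 9 of 245, 15 of 91, 19 of 51 and 7 of 15, and in Control 3 of 503, 16 of 753, 14 of 134, 13 of 72 and 23 of 62. From 1% to 3% the level was 958 CPM (918 to 1000) in YKL, 384 CPM (346 to 425) in PTH and 153 CPM (133 to 176) in Control, and at 3% or more it was 444, 232 and 628 CPM. YKL was thus above Control from 1% to 3%, at 6.25-fold (5.40 to 7.27), and below it at 3% or more, at 0.707-fold (0.627 to 0.795). These levels rest on few cells, since the 5 richest cells held 56.6% of the Mmp13 UMIs of YKL cells from 1% to 3%, and 71.9% of those of Control cells in the same class. Under 0.1%, PTH cells had 62.8 CPM, of which 5 cells held 93.9%.

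**Figure D5:**
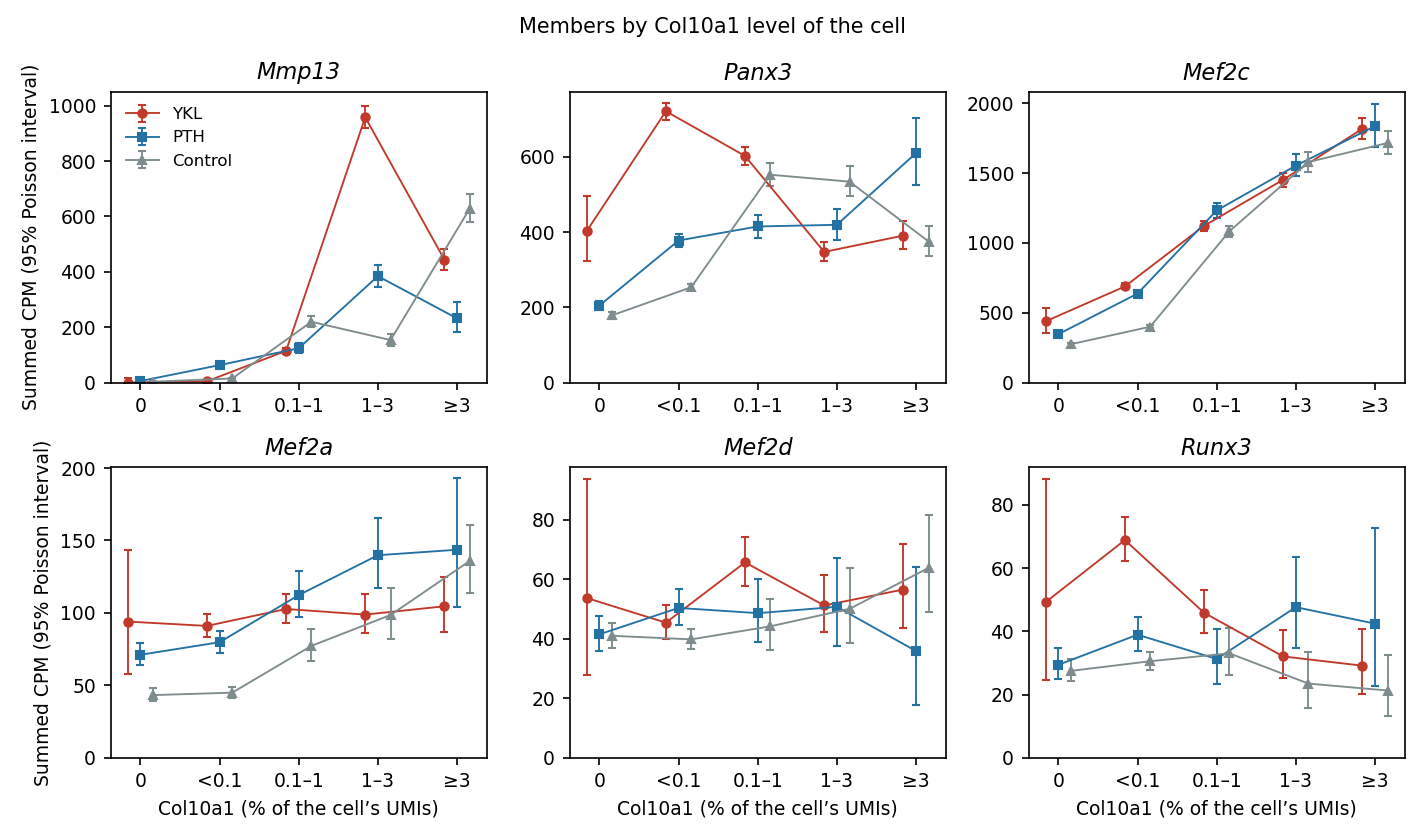
Summed CPM (y axes, linear, each from 0) of the 6 genes other than Col10a1 in 5 classes of cartilage cells by their Col10a1 share of UMIs (x axes, percent), in YKL (circles), PTH (squares) and Control (triangles), with 95% Poisson intervals. The 3 Mef2c lines run together from 0.1% upward, Panx3 is highest in YKL under 0.1% (722 CPM), and Mmp13 peaks from 1% to 3% in YKL (958 CPM).

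Genes most like these in pattern were ranked by Pearson r over thinned cells, averaged over the 3 libraries, among 5800 genes found in at least 5% of cells of each library. Mmp13 itself was under this limit in Control. The genes most like Col10a1 were Ddit4l (mean r 0.68), Loxl4 (0.67), a lysyl oxidase relative, Ihh (0.66), the hedgehog ligand of prehypertrophic chondrocytes, Map1lc3b (0.61), an autophagy gene, and Ibsp (0.58), the bone sialoprotein. Mef2c came at rank 10, with 0.51. For Mmp13 they were Spp1 (0.43), Fgfr1 (0.40), Rhod (0.39), Loxl4 (0.39) and Depp1 (0.38), with Col10a1 at rank 7. For Mef2c they were Col10a1 (0.51), Ibsp (0.48), Ihh (0.46), Ddit4l (0.46) and Aldh1a3 (0.46), a retinoic acid synthesis enzyme. Panx3 had other neighbours, namely Sgms2 (0.53) and Smpd3 (0.50), which make and cleave sphingomyelin, Col27a1 (0.43), a collagen of the growth plate, the PTH receptor Pth1r (0.41) and the pyrophosphatase Ppa1 (0.40). Mef2c stood at rank 17 of that list and Col10a1 at rank 295.

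Other genes of the programme were counted from 4 lists of 58 genes. Of 14 markers of the hypertrophic stage, 7 passed 1.5-fold upward and 1 downward for YKL against Control, with a median log2 ratio of 0.57, while over all genes 9.53% passed upward, 9.57% downward and the median was -0.02. The 5 farthest from 1 were Ihh at 3.28 (3.156 to 3.4002), Phospho1, a phosphatase of mineralization, at 2.52 (1.45 to 4.42), the alkaline phosphatase Alpl at 2.38 (2.33 to 2.43), Ibsp at 2.31 (2.29 to 2.33) and Spp1 at 2.17 (2.13 to 2.20). The lower one was Ptch1, the hedgehog receptor, at 0.564 (0.533 to 0.597). Spp1 leaned on few cells, since 5 cells held 34.5% of its UMIs in YKL, 34.0% in PTH and 21.5% in Control. Without the 5 cells richest in Mmp13 in each library, Spp1 stood at 1855, 1654 and 1036 CPM in YKL, PTH and Control, against 2457, 1785 and 1134 CPM with them. For PTH against Control 4 of 13 were higher and 0 lower, with a median of 0.29. Over all genes 6.96% were higher and the median was 0.02. Ibsp stood at 2.27 (2.24 to 2.29), Ihh at 1.71 (1.63 to 1.78) and Spp1 at 1.57 (1.55 to 1.60). The fourth, the gelatinase Mmp9, rested on a handful of cells. Its ratio was 6.41 (4.93 to 8.42), but 5 cells held 99.1% of its 232 UMIs in PTH, and without the 5 PTH and 5 Control cells richest in Mmp13 it stood at 0.611 CPM (0.264 to 1.20) in PTH and 2.64 CPM (2.07 to 3.32) in Control, the opposite direction. For YKL against PTH 4 of 14 were higher and 2 lower, with a median of 0.07. Over all genes 5.85% were higher, 8.94% were lower and the median was -0.02. Ihh was at 1.92 (1.846 to 1.999), the vessel growth factor gene Vegfa at 1.82 (1.71 to 1.94) and Alpl at 1.76 (1.72 to 1.80), whereas Ptch1 was at 0.463 (0.436 to 0.492). Mmp9, the other lower gene, was at 0.187 (0.132 to 0.259) and turned round without those cells, at 2.395 CPM in YKL and 0.611 CPM in PTH.

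Of 23 partners and repressors of MEF2 and RUNX factors, 19 had 50 UMIs for YKL against Control, with 5 higher, 1 lower and a median log2 ratio of 0.25. Over all genes 9.53% were higher, 9.57% were lower and the median was -0.02. The forkhead factor Foxa2, which acts in hypertrophy, had 8.24 CPM in YKL and 1.23 CPM in Control, a ratio of 6.72 (4.53 to 10.2). The hypoxia factor Epas1 was at 2.84 (2.44 to 3.31), the drug's target family member Sik1 at 2.11 (1.45 to 3.09) and Hdac7 at 1.62 (0.999 to 2.61), on 33 YKL and 43 Control UMIs. Runx2, a driver of hypertrophy, was named after its value was seen and stood at 1.608 (1.5002 to 1.724). Sox5, a factor of immature cartilage, was lower at 0.612 (0.550 to 0.680). For PTH against Control 3 of 19 were higher and 0 lower, with a median of 0.08, beside 6.96% of all genes higher and a median of 0.02. These were Epas1 at 2.27 (1.94 to 2.67), Hdac7 at 2.20 (1.41 to 3.42) and Sik1 at 1.92 (1.30 to 2.83). The repressor Hdac4, named after its values were seen, stood at 0.848 (0.651 to 1.10) for YKL and 1.06 (0.832 to 1.34) for PTH. For YKL against PTH 2 were higher and 1 lower of 19, with a median of 0.10, beside 5.85% of all genes higher, 8.94% lower and a median of -0.02. These were Foxa2 at 6.40 (3.82 to 11.4), Cebpb at 1.53 (1.401 to 1.668) and Sox5, the lower one, at 0.641 (0.569 to 0.723).

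The next list held 9 genes, relatives of the effectors along with Gja1, a connexin gene that is not a paralogue of Panx3. Of these, 5 had 50 UMIs for YKL against Control, and 3 of them were lower and 0 higher. Their median log2 ratio was -1.69, while 9.57% of all genes were lower. The short-chain collagens Col8a1 and Col8a2 stood at 0.309 (0.213 to 0.438) and 0.245 (0.159 to 0.363). The neutrophil collagenase Mmp8 had 0 UMIs in YKL cells, which allows up to 0.229 CPM by a floor of 3 counts, against 111 UMIs (4.01 CPM) in Control, and neutrophil markers differed between these libraries as given above. Mmp2 was at 0.694 (0.655 to 0.735) and the gap junction gene Gja1 at 1.44 (1.30 to 1.60). For PTH against Control, where 3.29% of all genes were lower, 1 of 5 was lower, Mmp8, with 2 UMIs in PTH and 111 in Control (ratio 0.0378, 0.00453 to 0.140). For YKL against PTH, with 5.85% of all genes higher and 8.94% lower, 1 of 4 was higher, Gja1 at 1.76 (1.543 to 2.003), and 3 were lower, Col8a2 at 0.188 (0.121 to 0.283), Col8a1 at 0.311 (0.209 to 0.452) and Mmp2 at 0.588 (0.552 to 0.626), with a median of -1.23. Of 12 genes of less mature cartilage, 0 were higher and 4 lower in YKL against Control, beside 9.57% of all genes lower, with a median of -0.18. Ucma, a matrix protein of resting and early chondrocytes, was at 0.133 (0.129 to 0.138), Epyc at 0.553 (0.520 to 0.587), Matn3 at 0.640 (0.630 to 0.651) and Cnmd at 0.666 (0.653 to 0.678). For PTH against Control 1 of 12 was lower, Matn1 at 0.626 (0.560 to 0.699), beside 3.29% of all genes, with a median of -0.18. For YKL against PTH 1 of 12 was lower, Ucma at 0.162 (0.156 to 0.168), beside 8.94% of all genes, with a median of -0.10.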

How the data were processed

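Droplet single-cell libraries (Chromium 3′ v3 chemistry, per the labels' protocols) were made from collagenase-released callus cells. The authors deposited unnormalised UMI counts for each gene in each barcode. Per the file headers, Cell Ranger 4.0.0 made them. The submitters' processing notes also name Seurat and mm10. No barcode had under 500 UMIs. The 7 genes and the 4 lists were chosen with earlier results of these data known.

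A barcode was kept if 500 or more genes were detected and mitochondrial genes took 10% of UMIs or less. Totals were 19424073 (YKL), 33981167 (PTH) and 55250651 UMIs (Control) in 1500, 5286 and 8021 barcodes. The collagen rule then gave cartilage cells with 13106259, 13201012 and 27715177 UMIs. Doublets were not called, and 2 alternatives address them. UMIs were summed per library and scaled to CPM. Ratios have exact conditional binomial intervals, levels Poisson and shares Clopper-Pearson intervals (95%). Genes with 50 or more UMIs over both libraries were compared, and 1.5-fold was the call. A gene at 0 took a floor of 3 counts in list medians. Thinning to 5000 UMIs left out 24 YKL, 35 PTH and 84 Control cells.

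All 5463 kept cells were clustered for the endothelial-like background (scanpy 1.11.5, 2000 variable genes, 30 components, 15 neighbours, Leiden resolution 0.8, no integration), and the 21 clusters were set against 14 marker lists, with some left unnamed. Of each list, up to 5 genes farthest from a ratio of 1 are named per comparison, and the 7 genes throughout. Other settings, 21 in all, were tried, 2 of them chosen after seeing the data. The code was tested on simulated data. Python 3.11.15, numpy 2.4.6, scipy 1.17.1, pandas 2.3.3 and matplotlib 3.10.9 were used.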

Additional observations from a re-analysis of the deposited data

How the results depend on the processing

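Under 21 alternatives, 19 of them planned, 1038 values were recomputed. Of these, 878 stayed within their counting interval or within 1.5 times the main count, 160 moved and 0 called values changed direction. The count of 6 of 7 genes for YKL against Control fell to 1 (Runx3) when the 5 Col10a1 classes were weighted equally, that of PTH against Control to 0 and that of YKL against PTH to 1 (Mmp13), with Col10a1 itself left out of that setting. In it Mmp13 stood at 1.49, Mef2a at 1.23 and Mef2c at 1.09 for YKL against Control, Mmp13 at 0.793 and Mef2a at 1.37 for PTH against Control, and Mmp13 at 1.88, Panx3 at 1.22 and Mef2c at 0.985 for YKL against PTH. With cells chosen by Col2a1 alone, or by Col2a1 with 3 of 5 other chondrocyte genes, the count for YKL against PTH was 5, as Mef2c and Runx3 crossed 1.5-fold, while Mmp13 fell to 1.79 there and to 2.43 and 2.45 for YKL against Control. In both settings the share of Col10a1-positive cells with Mmp13 was 12.1% in YKL and that with Mef2c 81.8% in Control. Shares of Col10a1-positive cells with Mef2c followed depth, at 80.7%, 78.3% and 67.9% in YKL, PTH and Control at 2000 UMIs and 99.1%, 96.1% and 92.5% at 10000 UMIs. With 2 UMIs of Col10a1 required, Mmp13 was found in 21.6% of PTH and 13.6% of Control cells and Mef2c in 96.8% and 92.0%. With Col10a1 at 0.1% of UMIs, the shares were 24.7%, 26.1% and 18.7% for Mmp13 in YKL, PTH and Control, and 98.7% and 97.8% for Mef2c in PTH and Control. Uncalled ratios that crossed 1 were Mmp13, Mef2d and Col10a1 for PTH against Control and Mef2c and Mef2a for YKL against PTH. Runx3 for YKL against PTH also reached 1.5 without the 5% of cells with most UMIs, and Mef2c 1.504 with 7 matrix genes left out of the totals. The cause was not tested. No paired analysis was possible because each group has 1 library and the result comes from no test. Depth limits Mef2a, Mef2d and Runx3 to about 1 UMI per positive cell at 5000 UMIs. Intervals and floors cover counting error only.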

Other observations

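Several of the 7 genes were also found in cells outside cartilage. Mef2a was higher in pericyte-like or smooth muscle-like cells, the contractile cells around vessels, than in chondrocyte-like cells, at 232 CPM (135 to 371) in YKL, 253 CPM (210 to 302) in PTH and 230 CPM (195 to 269) in Control cells, over 8, 62 and 78 cells. In chondrocyte-like cells it stood at 94.9, 85.2 and 51.7 CPM in the same libraries. Mef2c was at 361 CPM (317 to 410), 426 CPM (402 to 452) and 300 CPM (272 to 330) in endothelial-like cells of the YKL, PTH and Control libraries. Runx3, a factor of cytotoxic lymphocytes as well as of cartilage, stood at 206 CPM (110 to 353), 107 CPM (22.1 to 313) and 81.3 CPM (52.6 to 120) in T-like or NK-like cells, over 13, 13 and 100 cells.

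Mmp13 was also found in tendon-like cells, led by Tnmd and Thbs4. In the PTH library 237 such cells held 658 Mmp13 UMIs, or 162 CPM (150 to 175), in 71 cells, while Panx3 was at 0.492 CPM and Col10a1 at 27.3 CPM there. The YKL library had 0 tendon-like cells and the Control library 2, so no comparison between libraries was possible. An unnamed cluster of 159 cells, 127 of them cartilage cells by the collagen rule, was led by Col10a1, Mmp13, Loxl4, Ihh and Spp1, and held 66 YKL, 44 PTH and 49 Control cells.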
